A study of Mus musculus with 22 samples.

Results

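The axon guidance ligands and receptors are described here in single mouse retinal cells: the ephrins and their Eph receptors, the semaphorins with the plexins and neuropilins, the Slits and Robos, and the netrins with Dcc, Neo1 and the Unc5 receptors. Members were taken by gene symbol, from the prefixes Epha, Ephb, Efna, Efnb, Sema, Plxn, Nrp, Robo, Slit, Unc5 and Ntn and the symbols Dcc and Neo1. This gave 75 of the 18194 genes with a probe set of a single symbol on the array, carried by 168 probe sets, and the probe set with the highest mean stood for each gene. Of these, 37 are ligands, 34 are receptors, and 4 share only the letters of a prefix (Unc50, Unc5cl, Nrp and Plxna4os1) and are counted but not read as guidance genes.

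Each of the 22 cells was profiled alone, after 35 cycles of PCR, on an Affymetrix mouse array whose values are signal intensities. There were 3 photoreceptors, 2 from P0 and 1 adult rod. There were 13 ganglion cells, with 3 from E12.5, 1 from E13.5, 2 from E14.5, 3 from E15.5 and 4 from P0. There were 6 amacrine cells, with 1 from E16.5 and 5 from P0. No genotype or treatment is labelled. The strain CD1 is labelled for both P0 photoreceptors, all E12.5 and E14.5 ganglion cells, ganglion cell B1 of E15.5 and amacrine cell J6 of E16.5, and not for the other cells. The age of the adult is not given, no animal or litter is named, and the study named the cell types from the profiles themselves, so a marker of a type is not independent evidence of it.

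Guidance ligands steer a growing axon by attracting or repelling its tip through receptors on the growth cone. Ephrin-A and ephrin-B proteins are bound to the membrane and act through Eph receptor tyrosine kinases, whose gradients order ganglion cell axons on their brain targets. Secreted class 3 semaphorins act through a neuropilin paired with a plexin A, class 4 semaphorins act largely through plexin B receptors, and class 6 semaphorins bind plexin A receptors directly. Netrin-1 at the optic disc attracts ganglion cell axons through Dcc, and Slits repel axons through Robo receptors, in the retina and at the optic chiasm. Amacrine cells send no axon to the brain, and their neurites are sorted into layers of the inner plexiform layer, in which semaphorin and plexin pairs are known to take part.

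Promoter sequence is shown for 3 members whose detection differed by cell type in the values below: Plxna2 and Sema3d, which were detected in amacrine cells and in no ganglion cell, and Epha8, which was detected in the P0 photoreceptors alone. Epha8 was chosen after its values were seen. Each stretch is the part of the RefSeq window (build GRCm38.p6) that lies before the gene's outermost annotated start, written 5′ to 3′ on the strand of the gene, with CG dinucleotides in capitals. The windows are chr1:194619579-194619790 (+) for Plxna2, chr5:12382916-12383160 (+) for Sema3d and chr4:136956860-136957066 (-) for Epha8.
Plxna2: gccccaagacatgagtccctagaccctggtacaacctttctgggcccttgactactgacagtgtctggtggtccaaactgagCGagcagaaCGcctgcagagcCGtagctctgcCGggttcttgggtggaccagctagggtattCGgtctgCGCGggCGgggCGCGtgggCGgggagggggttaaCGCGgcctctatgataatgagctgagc
Sema3d: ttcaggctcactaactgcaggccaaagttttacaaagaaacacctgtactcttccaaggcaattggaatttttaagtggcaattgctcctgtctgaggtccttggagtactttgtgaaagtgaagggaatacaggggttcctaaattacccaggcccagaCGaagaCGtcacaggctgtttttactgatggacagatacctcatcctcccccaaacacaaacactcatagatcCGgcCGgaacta
Epha8: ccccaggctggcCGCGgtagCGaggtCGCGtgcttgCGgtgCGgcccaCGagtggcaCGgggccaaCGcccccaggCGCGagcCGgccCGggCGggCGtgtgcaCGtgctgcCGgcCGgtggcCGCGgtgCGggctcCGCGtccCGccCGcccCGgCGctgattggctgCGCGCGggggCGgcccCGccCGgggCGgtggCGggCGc
The stretches differed in base content: 84.1% of the Epha8 bases were G or C with 37 CG dinucleotides in 207 bases, 61.8% of the Plxna2 bases with 13 in 212, and 46.1% of the Sema3d bases with 4 in 245. Of the 75 members, 63 had a window in the table, some more than 1, and the median G and C content was 64.4% over the 79 windows of members and 52.4% over all 32851 windows. Letters of 4 motifs were sought on both strands. The AP-2 motif GCCNNNGGC matched 2 times in the Epha8 stretch and not in those of Plxna2 or Sema3d. It was present in 13.7% of all windows and for 17 of the 63 member genes. The EBF core CCCNNGGG (11.8% of all windows), the homeodomain core TAATTA (4.8%) and the CRX core TAATCC (6.3%) had no match in these 3 stretches. They matched for 15, 3 and 2 of the 63 member genes. For all 4 motifs the shares are per window and the member counts per gene. The windows of members were also richer in G and C, so these shares and counts were not compared.

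A gene is called detected in a cell at a signal of 1000 or more, which is 9.97 on the log2 scale, and lower signals were raised to a floor of 200, which is 7.64. All values named below as levels are log2 signals of 1 probe set, and levels are compared between cells for the same gene and not between genes. Precision is limited by how few arrays each group has. Between 1518 and 4352 genes were detected per cell. The P0 amacrine array B1 had a trimmed mean of 18.1, against 500 on the other arrays, and was multiplied by 27.6. Of 9 measured ganglion markers, 6 to 9 were detected per ganglion cell, 0 to 3 per amacrine cell and 1 per photoreceptor. Of 6 amacrine markers, 3 or 4 were detected per amacrine cell and 1 or 2 per ganglion cell or photoreceptor. Of 8 photoreceptor markers, 6 to 8 were detected per photoreceptor and 0 or 1 elsewhere. As sets, the markers thus went with the labelled types, but not every amacrine marker did. The transporter genes Slc6a9 and Slc32a1, which mark amacrine cells, were not detected in any of the 6 amacrine cells. Slc6a9 was detected in 1 P0 photoreceptor, and Slc32a1 in 1 P0 ganglion cell and the adult rod. Gad1 was also detected in 1 P0 photoreceptor and the adult rod, and Pax6 in all 13 ganglion cells and 1 P0 photoreceptor.

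A single cell had on average 13.1% of the members detected, against 16.2% of all genes. Of the 75 members, 51 (68.0%) were detected in at least 1 cell, against 60.4% of all genes. Only 4 members (5.3%) were detected in 11 or more cells, against 11.2% of all genes: the receptors Plxna1 and Plxna3 and the ligand Efnb3 in 14 cells each, and the ligand Sema4g in 13. Between these, 26 members were detected in 3 to 10 cells and 21 in 1 or 2 cells. Those 21 were Efna4, Efnb1, Epha7, Epha8, Ephb6, Nrp2, Ntn4, Ntn5, Ntng1, Ntng2, Plxna4, Robo2, Robo3, Sema3e, Sema3f, Sema4a, Sema4b, Sema5a, Slit3, Unc5b and Unc5d.

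The 24 members detected in 0 cells were Efna1, Epha1, Epha2, Epha3, Epha6, Epha10, Ephb4, Ntn1, Ntn3, Plxnb3, Plxnd1, Robo1, Robo4, Sema3b, Sema3c, Sema3g, Sema4c, Sema5b, Sema6c, Sema7a, Unc5a and the prefix matches Nrp, Plxna4os1 and Unc5cl. By any probe set of the gene, 22 were detected in 0 cells, since Sema3b and Sema6c each reached the threshold on another probe set. Ephb2 was not analysed here. A member not detected may still be expressed, because a signal under the threshold sets only an upper bound on this array.

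The fewest members, 4, were detected in the E15.5 ganglion cell C7, and the most, 18, in the P0 ganglion cell F1. The number detected was 8.67 ± 2.08 in photoreceptors (SD, n = 3 cells), 10.69 ± 4.09 in ganglion cells (SD, n = 13 cells) and 8.50 ± 3.21 in amacrine cells (SD, n = 6 cells), differences smaller than the spread between cells of a type. Ganglion cells of E12.5 had 13 or 14 members each, whereas the E13.5 cell had 5, the E14.5 cells 10 and 11, the E15.5 cells 4 to 12 and the P0 cells 9 to 18. These counts moved with the number of all genes detected in the same cell, with Pearson's r 0.58 and Spearman's rho 0.57 over the 22 cells. Both counts of a pair come from 1 array, and the part of this in differences between cells was not tested.

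**Figure D1:**
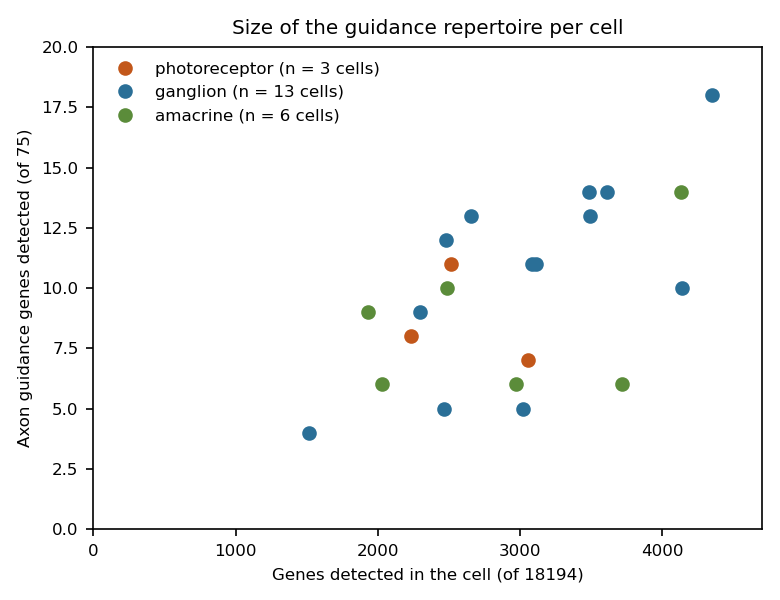
Number of axon guidance genes detected (of 75) against the number of all genes detected in the same cell, 1 point per cell, coloured by type. The P0 ganglion cell F1, with 18 members, also has the most genes detected (4352), and the E15.5 ganglion cell C7, with 4 members, the fewest (1518).

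To compare cell types, cells of a type and stage were averaged into 9 samples, and the 30 members detected in at least 3 cells (40.0% of members, against 39.5% of all genes) were tested with limma among 7184 genes. A member could enter through the group in which it was high, so counts over the 30 are not counts over all 75. No member passed the Benjamini-Hochberg threshold of 0.05 in any of 3 contrasts. In ganglion minus amacrine samples, 0 members were called, against 0.0696% of all tested genes. In photoreceptor minus ganglion and amacrine samples, 0 members were called, against 2.12% of all tested genes. Along the ganglion stages, 0 members were called, against 0.0139% of all tested genes. At an unadjusted limma p under 0.05 the counts were 3, 3 and 1 of the 30 members (10.0%, 10.0% and 3.33%), against 3.94%, 12.18% and 3.24% of all tested genes, and the closing section gives the 2 settings that called a member. The 3 in ganglion minus amacrine samples were Nrp1, with no detected amacrine cell, and Plxna2 and Sema3d, with no detected ganglion cell. They entered the test through the cells in which they were high, so that 10.0% is no evidence of an excess. With 30 members, 0 calls is close to the background share in each contrast, so the differences below are given with their errors as descriptions of these cells.

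**Figure D2:**
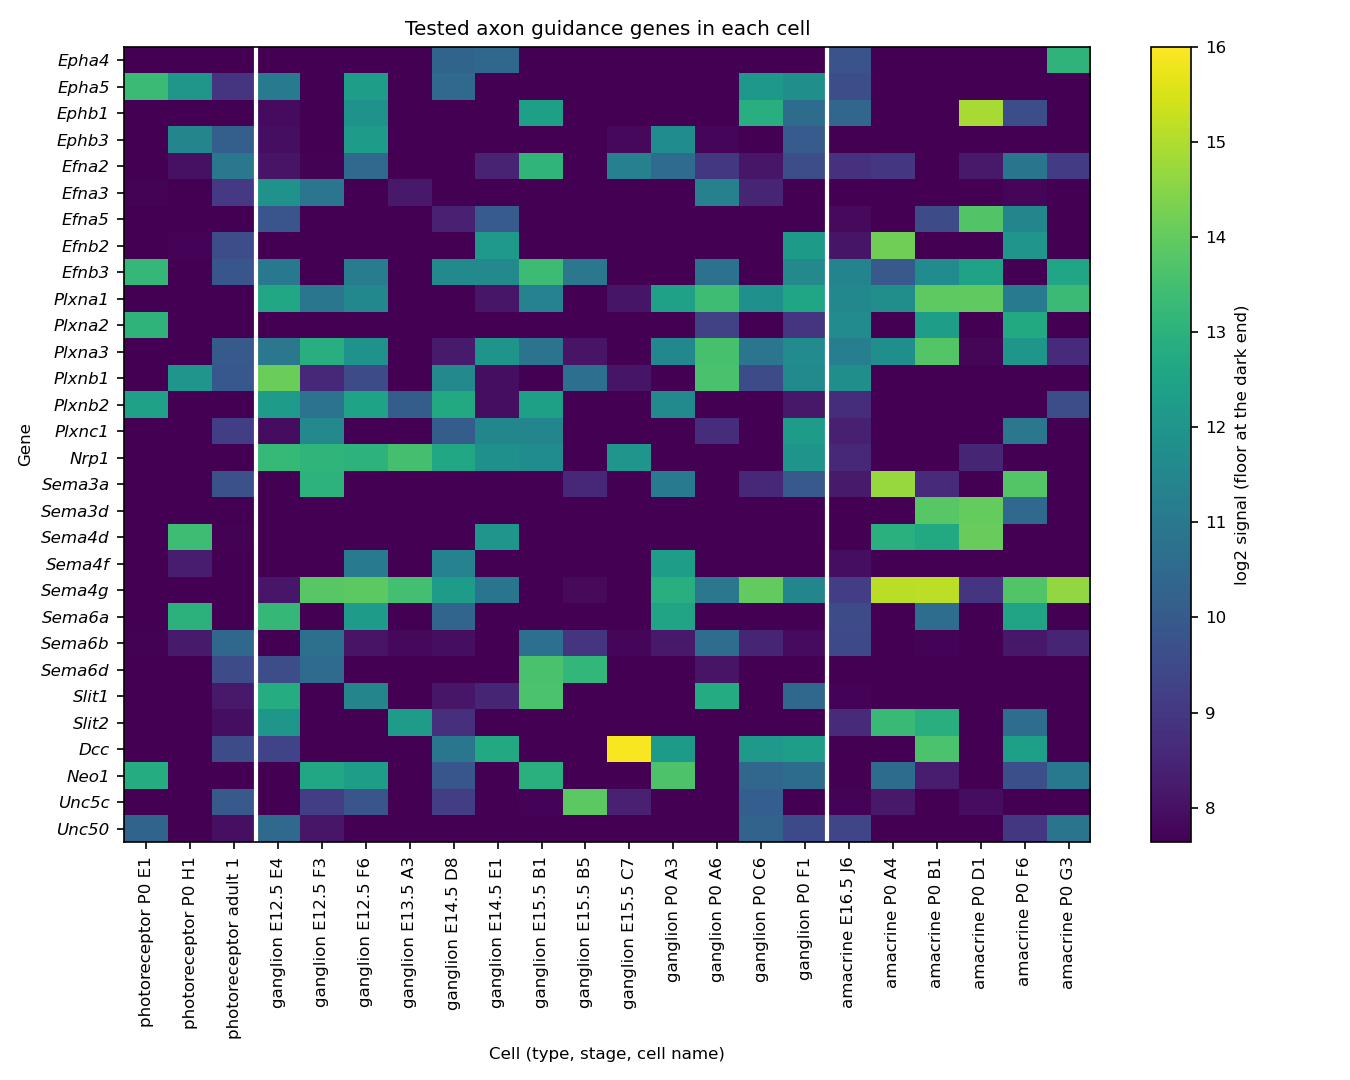
Log2 signal of the 30 tested axon guidance genes (rows, by family) in each of the 22 cells (columns, photoreceptors, ganglion cells and amacrine cells from left to right, separated by white lines). The darkest colour is the floor of 7.64 and the brightest is 16. Plxna1 and Sema4g are at the floor in all 3 photoreceptors, Sema3d is above it in 3 P0 amacrine cells alone, and Nrp1 is above the detection threshold in ganglion cells alone.

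Nrp1 encodes the neuropilin that binds class 3 semaphorins and one form of vascular endothelial growth factor, and it is known to guide ganglion cell axons at the optic chiasm. It was at the floor of 7.64 in both P0 photoreceptors and in the adult rod. In ganglion cells it was at 13.23, 13.12 and 13.05 at E12.5, 13.53 at E13.5, 12.64 and 11.85 at E14.5, 11.71, 7.64 and 12.04 at E15.5, and 7.64, 7.64, 7.64 and 11.98 at P0. In amacrine cells it was at 8.58 at E16.5 and at 7.64, 7.64, 8.52, 7.64 and 7.64 at P0.

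Nrp1 was thus detected in 8 of 9 embryonic ganglion cells, in 1 of 4 P0 ganglion cells (F1), and in 0 of 6 amacrine cells and 0 of 3 photoreceptors. A second probe set detected it in the remaining embryonic cell, B5 of E15.5, so all 9 were positive by any of its 4 probe sets, of which 1 did not reach the threshold in any cell. Ganglion samples averaged 11.62 ± 2.00 (SD, n = 5) and amacrine samples 8.20 ± 0.54 (SD, n = 2), a difference of 3.42 ± 1.42 (SE) with a limma adjusted p of 0.999 (unadjusted 0.0159). Nrp1 entered the test through ganglion cells alone, so the p-values of its type contrasts are no independent evidence. Within P0 the difference was 0.91, with means of 8.73 in ganglion and 7.82 in amacrine cells. The difference of photoreceptor samples from the ganglion and amacrine means was -2.27 ± 1.39 (SE, limma adjusted p 0.52). The other neuropilin, Nrp2, was detected in 1 cell, P0 ganglion cell A3, at 11.46.

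The plexin A receptors, which transmit the semaphorin signal into the cell, differed in their patterns. Plxna1 was at the floor in all 3 photoreceptors. In ganglion cells it was at 12.64, 10.92 and 11.55 at E12.5, 7.64 at E13.5, 7.64 and 8.13 at E14.5, 11.35, 7.64 and 8.12 at E15.5, and 12.42, 13.42, 11.83 and 12.56 at P0. In amacrine cells it was at 11.53 at E16.5 and at 11.78, 13.94, 13.97, 11.06 and 13.33 at P0. All 6 amacrine cells and all 4 P0 ganglion cells were above the threshold, as were 4 of 9 embryonic ganglion cells.

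Plxna1 was lower by 2.41 in ganglion than in amacrine samples (difference -2.41 ± 1.40 SE, limma adjusted p 0.999), but within P0 the difference was -0.26, with means of 12.56 in ganglion and 12.82 in amacrine cells. In photoreceptor samples it was lower by 3.33 than the ganglion and amacrine means (difference -3.33 ± 1.38 SE, limma adjusted p 0.24). Plxna3, the other widely detected plexin A, was at the floor in both P0 photoreceptors and at 10.01 in the adult rod, and was found in 9 of the 13 ganglion cells and 4 of the 6 amacrine cells. It was detected together with Plxna1 in 12 cells, of which 8 were ganglion and 4 amacrine cells.

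Plxna2, a receptor of Sema6a known from amacrine cells of the inner retina, was detected in 0 of 13 ganglion cells, where the highest level was 9.29. It was at 13.09 and 7.64 in the P0 photoreceptors E1 and H1 and at 7.64 in the adult rod. In amacrine cells it was at 11.67 at E16.5 and at 7.64, 12.30, 7.64, 12.73 and 7.64 at P0. The 3 amacrine cells above the threshold also had Plxna1 above it. Ganglion samples averaged 7.79 ± 0.33 (SD, n = 5) and amacrine samples 10.63 ± 1.47 (SD, n = 2), a difference of -2.84 ± 1.05 (SE, limma adjusted p 0.962), and of -1.80 without amacrine cell J6. It entered the test through amacrine and photoreceptor cells alone. Within P0 the ganglion minus amacrine difference was -1.22. Plxna4 was detected in P0 photoreceptor E1 alone, at 11.23.

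**Figure D3:**
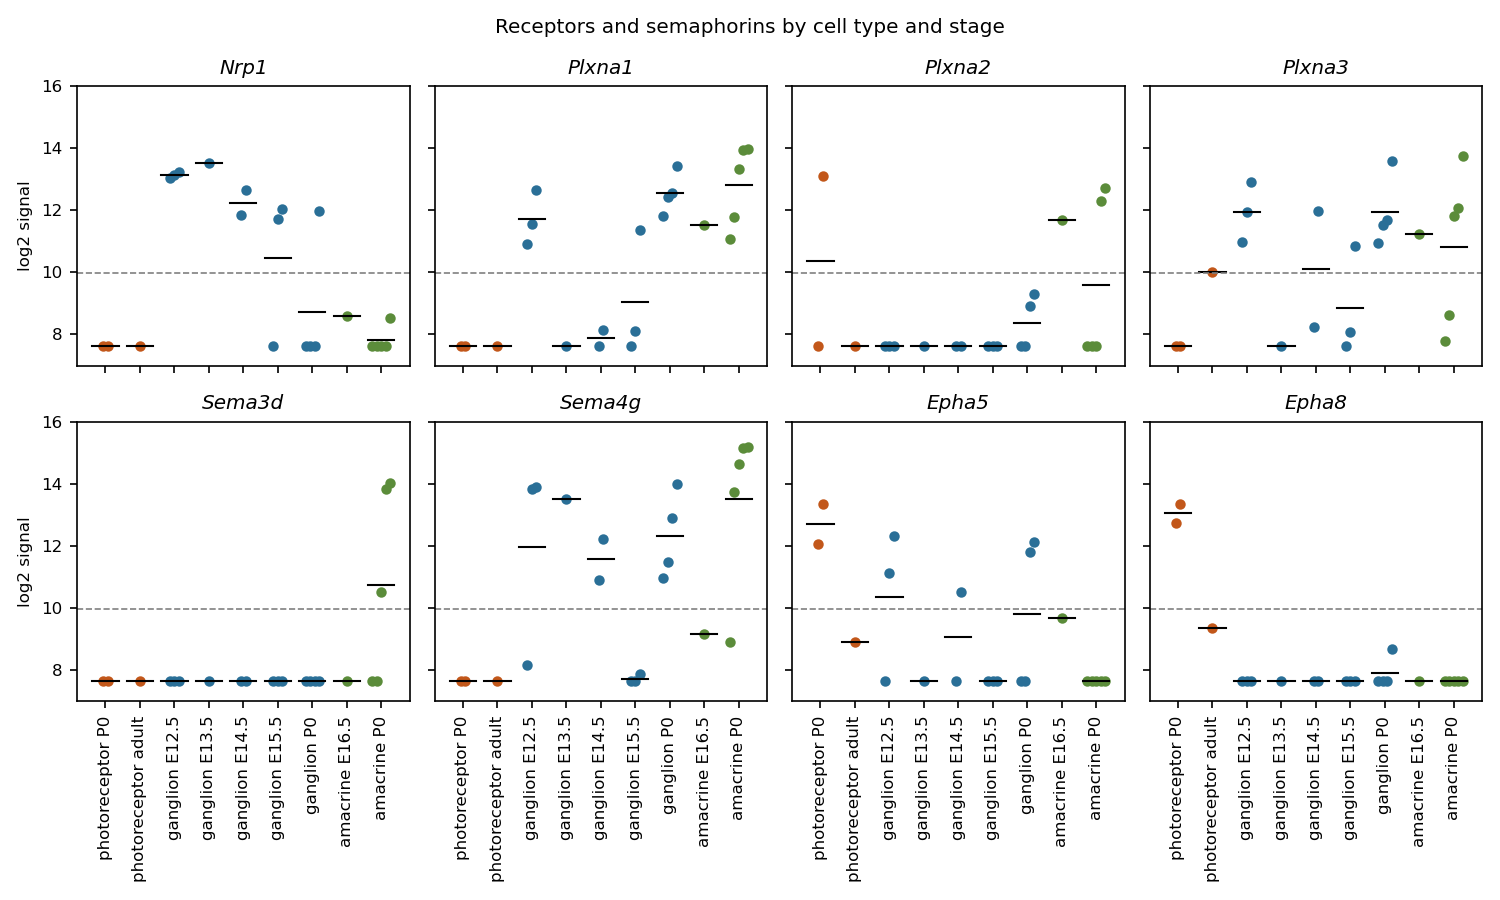
Log2 signal of 8 guidance genes in each cell (points) by type and stage, with the mean of each group as a bar and the detection threshold of 9.97 as a dashed line. Photoreceptors are orange, ganglion cells blue and amacrine cells green. Plxna2 and Sema3d do not reach the threshold in any of the 13 ganglion cells, and Epha8 reaches it in the 2 P0 photoreceptors alone.

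A plexin B receptor was detected in 2 of 3 photoreceptors, 10 of 13 ganglion cells and 1 of 6 amacrine cells, and by any probe set of these genes in 2 photoreceptors, 12 ganglion cells and 3 amacrine cells. Plxnb2 was at 12.41 and 7.64 in the P0 photoreceptors and 7.64 in the adult rod. In ganglion cells it was at 12.27, 10.82 and 12.48 at E12.5, 10.09 at E13.5, 12.71 and 7.95 at E14.5, 12.38, 7.64 and 7.64 at E15.5, and 11.65, 7.64, 7.64 and 8.17 at P0. In amacrine cells it reached the threshold in 0 of 6, with 9.66 the highest level.

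Plxnb2 was thus detected in 7 of 13 ganglion cells, and the ganglion minus amacrine difference was 1.67 ± 1.34 (SE, limma adjusted p 0.999), and 0.73 within P0. Plxnb1 was detected in 5 ganglion cells, 1 amacrine cell and 1 photoreceptor. Its 2 probe sets disagreed: by either of them it was detected in 9 ganglion and 3 amacrine cells, 13 cells in all instead of 7. Plxnc1, which binds Sema7a, was detected in 5 ganglion cells and 1 amacrine cell.

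Among the semaphorins, Sema4g was the most widely detected. It was at the floor in all 3 photoreceptors. In ganglion cells it was at 8.16, 13.82 and 13.89 at E12.5, 13.51 at E13.5, 12.23 and 10.89 at E14.5, 7.64, 7.86 and 7.64 at E15.5, and 12.88, 10.96, 13.98 and 11.48 at P0. In amacrine cells it was at 9.17 at E16.5 and at 15.15, 15.17, 8.89, 13.73 and 14.63 at P0. It was thus above the threshold in all 4 P0 ganglion cells, in none of the 3 of E15.5, and in 4 of 5 P0 amacrine cells.

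Sema4g gave the largest difference of any tested member in the photoreceptor contrast, -3.73 ± 1.44 (SE, limma adjusted p 0.183), while ganglion and amacrine samples differed by 0.07 ± 1.46 (SE, limma adjusted p 0.999). A class 4 semaphorin and a plexin B were detected in the same cell in 8 of 13 ganglion cells, in 0 of 6 amacrine cells and in 1 of 3 photoreceptors, although 5 of the amacrine cells had a class 4 semaphorin. By any probe set of these genes, an alternative added after the data were seen, the pair was found in 10 ganglion cells, 2 amacrine cells and 1 photoreceptor.

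Sema3d, a secreted class 3 semaphorin, was at the floor in all 3 photoreceptors, all 13 ganglion cells and the E16.5 amacrine cell. In P0 amacrine cells it was at 7.64 in A4, 13.84 in B1, 14.03 in D1, 10.51 in F6 and 7.64 in G3. It was detected by 1 of its 2 probe sets. The ganglion minus amacrine difference was -1.55 ± 0.62 (SE, limma adjusted p 0.999). Sema3d entered the test only through these 3 amacrine cells, with all ganglion cells at the floor, so its p is no independent evidence. The difference was -3.09 without amacrine cell J6, the E16.5 cell at the floor, and its size depends on the floor. Cells B1, D1 and F6 also carried 2, 3 and 2 of 8 progenitor markers, against 0 in A4 and G3, and the log2 of their summed progenitor signal was 15.48, 15.59 and 14.93, against 10.85 in A4 and 10.78 in G3. Ccnd1 was detected in B1, D1 and F6, Sox2 in B1 and F6, Top2a and Fgf15 in D1, and Mki67 and Hes5 in no amacrine cell. The E16.5 cell J6, with Sema3d at the floor, carried 1 of 8, Sox2 at 14.93. Its summed progenitor log2 signal was 15.0. The part of these markers in the Sema3d values was not tested.

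Sema3a, the class 3 repellent that signals through Nrp1, was detected in 3 ganglion cells, at 13.04 in F3 of E12.5, 11.09 in A3 of P0 and 9.98 in F1 of P0 (in 5 by any of its probe sets, with F6 of E12.5 and D8 of E14.5), and in P0 amacrine cells A4 at 14.72 and F6 at 13.77. A class 3 semaphorin was found in 4 of 5 P0 amacrine cells, in which no neuropilin was detected. In ganglion cells, each of the 5 cells with a class 3 semaphorin also had a neuropilin, and a neuropilin was found in 10 of the 13; by any probe set these were 7 of 7 cells and 11 of the 13. Nrp1 and a plexin A, which together form the receptor of most class 3 semaphorins, were detected together in 6 ganglion cells, 5 of them embryonic, and in 0 amacrine cells and 0 photoreceptors.

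The transmembrane class 6 semaphorins were spread over the types. Sema6a, a ligand of Plxna2 and Plxna4, was detected in P0 photoreceptor H1 at 13.01, in 4 ganglion cells at 10.38 to 13.20 and in amacrine cells B1 and F6 of P0 at 10.63 and 12.51. Sema6d was detected in 3 ganglion cells, F3 of E12.5 at 10.57 and B1 and B5 of E15.5 at 13.61 and 13.19, and in 0 of 6 amacrine cells. Its ganglion minus amacrine difference was 1.12 ± 0.91 (SE, limma adjusted p 0.999), and 0.11 within P0. Sema6d entered the test through ganglion cells alone. Sema6b was detected in the adult rod at 10.42 and in 3 ganglion cells, and Sema5a in P0 photoreceptor H1 at 12.44 and ganglion cell F1 of P0 at 10.38.

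Among the Eph receptors, Epha5 and Epha8 were detected in both P0 photoreceptors and in no amacrine cell by the probe set that stood for the gene. Epha5, an ephrin-A receptor with a graded pattern across the retina, was at 13.33 and 12.05 in the P0 photoreceptors and 8.89 in the adult rod. It was detected in 5 ganglion cells, at 11.11 and 12.32 in E4 and F6 of E12.5, 10.50 in D8 of E14.5, and 12.11 and 11.80 in C6 and F1 of P0, and in 0 of 6 amacrine cells, where it reached 9.66. The photoreceptor contrast was 2.01 ± 1.28 (SE, limma adjusted p 0.535), and 3.91 without the adult rod. The 4 probe sets of Epha5 disagreed, and by any of them it was detected in 8 ganglion and 2 amacrine cells.

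Epha8, another ephrin-A receptor, was at 13.35 and 12.74 in P0 photoreceptors E1 and H1, at 9.34 in the adult rod, at 8.69 in ganglion cell A3 of P0, and at the floor in every other ganglion and amacrine cell. It has a single probe set and did not reach the 3 cells needed for a test. Of the 3 promoter stretches above, its own holds the most CG dinucleotides, and a link to its detection was not tested. Photoreceptor H1 also carried 3 of 6 glial and 3 of 8 progenitor markers, with Aqp4, Gfap and Slc1a3 not detected, and E1 carried 0 of each. Of 5 pigment epithelium markers, 1 was detected in each of these cells and none in the other 20 cells: Dct in E1 at 13.82 and Pmel in H1 at 12.35, with Tyr and Rpe65 not detected in any cell. The log2 of the summed pigment epithelium signal was 13.90 in E1 and 12.55 in H1, against 10.74 in the adult rod and 9.97 to 10.31 in ganglion and amacrine cells. The part of these markers in the Epha5 and Epha8 values was not tested.

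Ephb3 was detected in P0 photoreceptor H1 at 11.45, in the adult rod at 10.16 and in 3 ganglion cells, F6 of E12.5 at 12.26 and A3 and F1 of P0 at 11.69 and 10.03. It was at the floor in all 6 amacrine cells, and its photoreceptor contrast was 1.88 ± 0.91 (SE, limma adjusted p 0.376, unadjusted 0.0394), and 0.93 without P0 photoreceptor H1 and 2.83 without E1. Ephb1, the receptor known to turn ganglion cell axons to the same side of the brain at the chiasm, was at the floor in all 3 photoreceptors. It was detected in 4 ganglion cells, F6 of E12.5 at 11.90, B1 of E15.5 at 12.38 and C6 and F1 of P0 at 12.93 and 10.60, and in amacrine cells J6 at 10.39 and D1 of P0 at 14.91. Epha4, which binds ephrins of both classes, was detected in both E14.5 ganglion cells at 10.35 and 10.46 and in P0 amacrine cell G3 at 13.09.

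The E14.5 ganglion cells also held markers of other cells: 3 and 4 of 5 lens markers, 3 each of 6 blood and vessel markers, 4 and 6 of 8 progenitor markers and 2 each of 6 glial markers. The log2 of their summed lens signal was 16.12 and 16.36, against 9.97 in all 3 E12.5 cells and 9.97 to 10.14 in P0 ganglion cells. The E13.5 cell had 1 of 5 lens markers, Cryaa, with a summed signal of 12.84, and Cryab was not detected in any cell. Ganglion cells of E15.5 held 2 of 6 blood and vessel markers each, the embryonic globins Hbb-y and Hba-x, with Pecam1 and Hba-a1 not detected, and the log2 of their summed signal was 15.96 to 17.20, against 10.23 in each E12.5 cell and 10.23 to 10.38 at P0. Without the E14.5 and E15.5 samples, the ganglion minus amacrine difference was 3.60 for Nrp1, -2.75 for Plxna2 and 1.86 for Plxnb2, and -1.54 for Plxna1. It was 0.58 for Sema6d, 0.26 for Dcc, where the value over all samples was 1.12 and that without amacrine cell J6 was 0.04, and -2.14 for Efnb3, where it was -1.29. The part of these markers in the stage slopes was not tested.

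**Figure D4:**
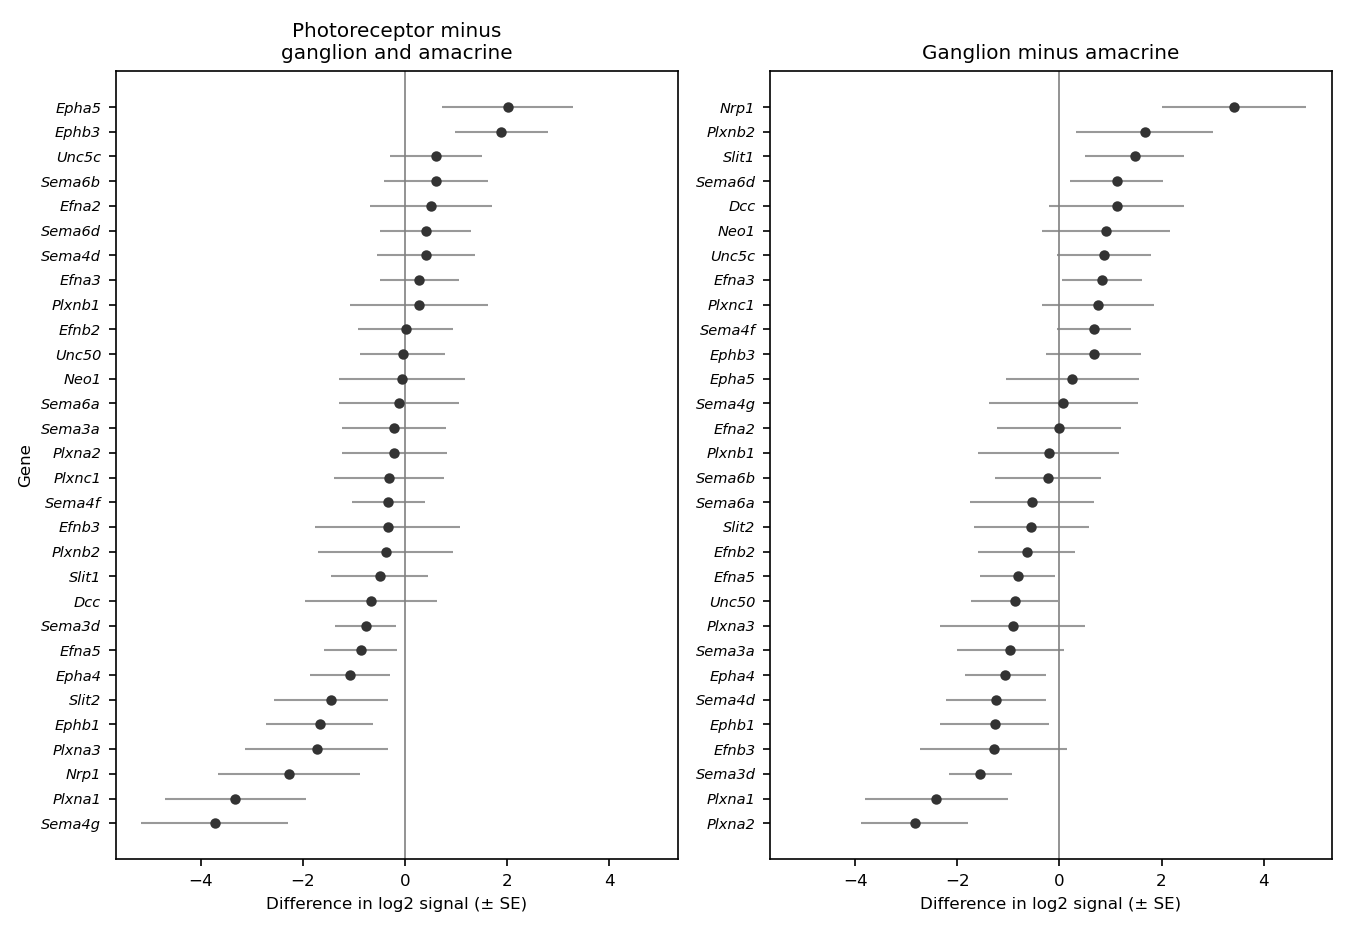
Difference in log2 signal of each of the 30 tested members, as points with the standard error as bars, for photoreceptors minus the mean of ganglion and amacrine means (left) and ganglion minus amacrine (right). Sema4g and Plxna1 have the lowest values on the left, and Nrp1 the highest and Plxna2 the lowest on the right, and no member passed the adjusted threshold.

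The ephrins were found in all types. Efnb3, which has a single probe set, was detected in P0 photoreceptor E1 at 13.21, in 8 of 13 ganglion cells at 10.80 to 13.36 and in 5 of 6 amacrine cells at 9.98 to 12.54. Efnb2 was detected in ganglion cells E1 of E14.5 at 12.14 and F1 of P0 at 12.20 and in amacrine cells A4 of P0 at 14.20 and F6 of P0. Of the ephrin-A genes, Efna2 was detected in the adult rod at 10.99, in 4 ganglion cells and in amacrine cell F6 of P0 at 10.88, and Efna5 in ganglion cell E1 of E14.5 at 10.04 and amacrine cells D1 and F6 of P0 at 13.72 and 11.47. An ephrin-A and an EphA were detected together in 4 of 13 ganglion cells, all embryonic, and in no amacrine cell or photoreceptor by the probe set that stood for each gene. By any probe set the pair was found in 5 ganglion cells, 1 of them of P0, and in 2 amacrine cells, so neither limit held. An ephrin-B and an EphB were detected together in 3 ganglion and 2 amacrine cells.

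The Slit ligands were detected and their receptors hardly so. Slit1 was detected in ganglion cells alone, at 12.82 and 11.43 in E4 and F6 of E12.5, 13.62 in B1 of E15.5, and 12.77 and 10.42 in A6 and F1 of P0. Its highest level was 8.22 in photoreceptors and 7.73 in amacrine cells, and the ganglion minus amacrine difference was 1.48 ± 0.97 (SE, limma adjusted p 0.999). Slit1 entered the test through ganglion cells alone, and this difference was -0.07 with quantile normalization. Slit2 was detected in ganglion cells E4 of E12.5 at 12.07 and A3 of E13.5 at 12.22 and in P0 amacrine cells A4, B1 and F6 at 13.30, 12.93 and 10.63. By any probe set of the gene it was detected in 3 ganglion cells, 1 of them of P0, and in 3 amacrine cells. Robo2 reached the threshold in ganglion cell F1 of P0 alone, at 11.33, and Robo3 in the adult rod alone, at 10.58.

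Of the netrins, Ntn4 and Ntn5 were detected in the adult rod alone, at 10.22 and 11.47. The arrays of the adult rod and of amacrine cell J6 stood apart, with a median signal of 192.1 and 197.7, against 32.86 to 79.1 on the others. Of the 16 members detected in 1 cell, 6 were detected in the adult rod (Ntn4, Ntn5, Ntng2, Robo3, Slit3 and Unc5b) and none in J6. The adult rod had 1 of 6 glial markers, Clu at 17.91, with a summed glial log2 signal of 17.92, against 10.23 to 14.75 in the other 21 cells, and Glul, Rlbp1, Aqp4, Slc1a3 and Gfap were not detected in it. Clu was called in the photoreceptor contrast (difference 5.94 ± 1.35 SE, limma adjusted p 0.00175). The part of the array and of this marker in these calls was not tested. Ntng1, a membrane-anchored relative of the netrins, was detected in P0 ganglion cells A3 and C6 at 11.46 and 11.21. The netrin receptor Dcc was at 7.64 in both P0 photoreceptors and 9.57 in the adult rod. In ganglion cells it was at 9.33, 7.64 and 7.64 at E12.5, 7.64 at E13.5, 10.91 and 12.72 at E14.5, 7.64, 7.64 and 15.92 at E15.5, and 12.21, 7.64, 12.14 and 12.33 at P0. In amacrine cells it was at 7.64 at E16.5 and at 7.64, 13.63, 7.64, 12.36 and 7.64 at P0.

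Dcc was thus present at high levels in some cells of ganglion and amacrine type and at the floor in others of the same stage. It was detected by 1 of its 3 probe sets. Neo1, a receptor of netrins and of repulsive guidance molecules, was detected in P0 photoreceptor E1 at 12.81, in 6 ganglion cells at 10.41 to 13.65 and in amacrine cells A4 and G3 of P0 at 10.59 and 11.02. Dcc and Neo1 were detected together in 3 cells, all P0 ganglion cells. Unc5c, which turns the netrin response to repulsion, was detected in the adult rod at 9.99 and in ganglion cells B5 of E15.5 at 13.90 and C6 of P0 at 10.13, and Unc5d in ganglion cell C6 of P0 at 10.45.

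Types were compared within P0, where stage does not differ. These comparisons set 1 averaged sample against another, so they have no test, and a member is counted when it differs by at least 2 on the log2 scale, a 4-fold difference. The P0 groups may share an animal. The strain CD1 is labelled for both P0 photoreceptors and for no P0 ganglion or amacrine cell, and its part was not tested. In P0 ganglion minus P0 amacrine cells, 2 members were higher, where 10.8% of all tested genes were: Plxnb1 (difference 2.95) and Epha5 (2.15, and 1.38 to 2.87 when each cell was left out, under 2 without C6 or F1). Lower were 4 members, where 4.69% of all tested genes were: Sema4d (difference -3.36), Sema3d (-3.09), Slit2 (-2.79) and Efna5 (-2.36). By the probe set that stood for the gene, all 4 were at the floor in every P0 ganglion cell, so these differences depend on the floor. By another probe set, Slit2 was detected in 1 P0 ganglion cell. Cells of the groups overlapped for all 30 members, whereas 1.99% of all tested genes did not overlap.

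The median over the 30 members was 0.30 in P0 ganglion minus P0 amacrine cells and 0.23 over all tested genes. Sema4d was at 12.94, 12.72 and 14.05 in P0 amacrine cells A4, B1 and D1 and at the floor in F6 and G3. Plxnb1 was at 7.64, 13.59, 9.55 and 11.61 in P0 ganglion cells A3, A6, C6 and F1 and at the floor in all 5 P0 amacrine cells. Leaving out P0 ganglion cell A6 turned the Plxnb1 difference to -0.38, because another probe set then had the highest mean.

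In P0 photoreceptors minus P0 ganglion and amacrine cells, 1 member was higher, where 11% of all tested genes were: Epha5 (difference 3.97). Lower were 5 members, where 13.9% of all tested genes were: Sema4g (difference -5.27), Plxna1 (-5.04), Plxna3 (-3.72), Dcc (-2.79) and Sema3a (-2.26, and -2.61 to -1.73 when each cell was left out). Cells of the groups did not overlap for Sema4g, Plxna1 and Plxna3, and did not overlap for 3.7% of all tested genes. For Plxna3 the floor makes this separation, since amacrine cell D1, at 7.78, was also below the detection threshold. Each of these 5 genes was at the floor in both P0 photoreceptors, with 2 cells setting the photoreceptor side. The median over the 30 members was -0.54 and over all tested genes -0.49, so the members were lower in photoreceptors by about as much as genes at large.

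Over all samples the medians of the members were -0.22 in ganglion minus amacrine samples, against -0.06 over all tested genes, and -0.26 in photoreceptor minus ganglion and amacrine samples, against -0.57. In the first contrast 13 of the 30 members were positive and 17 negative, and in the second 10 were positive and 20 negative. These medians are descriptions, since members share cells and arrays.

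The ganglion series ran from E12.5, when the first ganglion cell axons leave the retina, to P0, when axons have reached their targets. Nrp1 had the steepest slope of the 30 members, -1.19 ± 0.48 per stage step (SE, 5 samples, limma adjusted p 1.0, unadjusted 0.013). Slit2 followed with -0.75 ± 0.55, Plxnb2 with -0.70 ± 0.61, Sema4g with -0.51 ± 0.50 and Sema6a with -0.43 ± 0.51. In the other direction were Dcc with 0.85 ± 0.62, Efna2 with 0.42 ± 0.53, Plxna1 with 0.31 ± 0.63, Ephb1 with 0.27 ± 0.44 and Efnb2 with 0.23 ± 0.27. All of these had a limma adjusted p of 1.0. When each cell was left out, the slope ranged from -0.90 to -0.40 for Slit2, from -0.89 to -0.28 for Sema4g, from -0.77 to -0.21 for Sema6a, from 0.05 to 0.40 for Plxna1, from 0.05 to 0.54 for Ephb1 and from 0.00 to 0.30 for Efnb2. The value nearest 0 came without A3 of E13.5 for Slit2, Sema4g and Plxna1, without E4 of E12.5 for Sema6a, without C6 of P0 for Ephb1 and without F1 of P0 for Efnb2. The median slope was 0.01 over the members, with 18 positive and 12 negative.

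**Figure D5:**
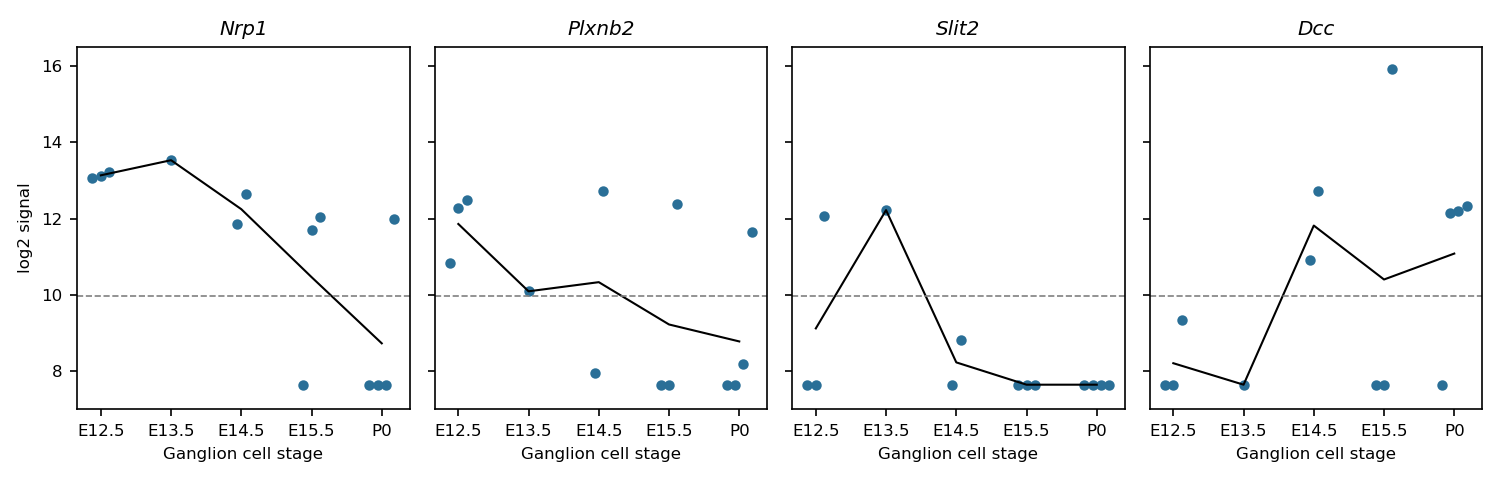
Log2 signal of Nrp1, Plxnb2, Slit2 and Dcc in ganglion cells (points) at each of the 5 stages, with a line through the stage means and the detection threshold of 9.97 dashed. Nrp1 lies at 13.05 to 13.23 in the 3 E12.5 cells and at the floor in 3 of 4 P0 cells, and Dcc lies at or above 12.14 in 3 of 4 P0 cells.

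In P0 minus E12.5 ganglion cells, 1 member was higher, where 9.7% of all tested genes were: Dcc (difference 2.87). Lower were 3 members, where 9.27% of all tested genes were: Nrp1 (difference -4.41), Plxnb2 (-3.08) and Sema6a (-2.16, and -3.85 to -1.07 when each cell was left out). Nrp1 was the only member of the 30 whose cells did not overlap, where 6.07% of all tested genes did not. The highest P0 cell, F1 at 11.98, lay below the lowest E12.5 cell at 13.05. This result rests on the probe set: when E14.5 ganglion cell D8 was left out another probe set of Nrp1 had the highest mean, E12.5 cell E4 was then at the floor, the difference was -2.41 and the slope -0.55. Sema6a overlapped, at 12.52, 7.64, 7.64 and 7.64 in the P0 cells and 13.20, 7.64 and 12.23 in the E12.5 cells. The median over the 30 members was -0.01, and 0.08 over all tested genes. The strain CD1 is labelled for all E12.5 ganglion cells and for no P0 ganglion cell, and its part was not tested.

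P0 ganglion cells differed among themselves. Cell F1 had 18 members, 12 of them receptors, and was the P0 ganglion cell with Nrp1, Robo2 and Plxnc1. Cell A6 had none of Dcc, Neo1, Nrp1 and Epha5 above the threshold, and had Slit1 at 12.77 and Plxnb1 at 13.59. Plxna1, Plxna3 and Sema4g were above the threshold in all 4.

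Other genes of the guidance pathways were summarised from 3 lists. Of 48 effectors and adaptors, which carry receptor signals to the cytoskeleton, 34 were tested, and 1 was called in a contrast: Crmp1, a mediator of semaphorin signalling, fell by 5.46 in photoreceptor samples relative to the ganglion and amacrine means (difference -5.46 ± 1.32 SE, limma adjusted p 0.00455). This was 1 of 34, against 2.12% of all tested genes. No effector was called in ganglion minus amacrine samples or along the stages. An unadjusted limma p under 0.05 was found for 9 of the 34 in the photoreceptor contrast (26.47%, against 12.18% of all tested genes), 2 in ganglion minus amacrine samples (5.88%, against 3.94%) and 1 along the stages (2.94%, against 3.24%). The list's median was -1.48 in the photoreceptor contrast, with 27 of 34 negative, beside -0.57 over all genes, and -0.20 in the ganglion minus amacrine contrast, beside -0.06. In the photoreceptor contrast the related Dpysl4 was at -4.40 ± 1.38 (SE, limma adjusted p 0.0595). Dpysl3 was at -3.32 ± 1.34 (SE, limma adjusted p 0.224) and Dpysl5 at -3.35 ± 1.42 (SE, limma adjusted p 0.258). Dpysl2 went the other way, at 0.38 ± 1.05 (SE, limma adjusted p 0.892). Cfl1, from the same list, was at -3.29 ± 1.01 (SE, limma adjusted p 0.0505).

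Of 29 other guidance cues and receptors, 17 were tested and none was called in any of the 3 limma contrasts, with 1 having an unadjusted p under 0.05 in each type contrast (5.88%, against 3.94% of all tested genes in ganglion minus amacrine samples and 12.18% in the photoreceptor contrast) and 2 along the stages (11.76%, against 3.24%). Their median was 0.82 in ganglion minus amacrine samples, with 12 of 17 positive, beside -0.06 over all tested genes. The highest of the 17, named here for their size, were the adhesion molecules Cntn2 and L1cam, both known on growing axons. They were at 3.28 ± 1.35 and 2.89 ± 1.48 (SE, limma adjusted p 0.999 each). The lowest was Lingo1, at -1.63 ± 1.42 (SE, limma adjusted p 0.999). Of 11 retinal patterning factors, 3 were tested (Pou4f1, Tbx2 and Vax2) and none was called by limma. Pou4f1, which was at 3.26 ± 1.40 in ganglion minus amacrine samples (SE, limma adjusted p 0.999), had an unadjusted p under 0.05 there, and none of the 3 did in the other contrasts.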

How the data were processed

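Per the labels' protocols, single cells were lysed, and cDNA primed with oligo dT was amplified by PCR, biotin labelled and hybridised. The deposited values are signal intensities made by the authors with MAS5, per the submitters' processing notes, and they are linear and come with no detection calls.

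The values were scaled to a 2% trimmed mean of 500, which 21 of the 22 arrays already had, raised to a floor of 200 and put on the log2 scale. Of 45101 probe sets, 34958 had a single symbol in the platform annotation. The highest-mean probe set stood for each gene, and 7184 genes at or above 1000 in at least 3 cells were tested. Log2 values were averaged over the cells of a type and stage, because no animal is named, and the 9 samples were fitted by lmFit and eBayes(trend) of limma 3.58.1, run in R 4.3.3, with Benjamini-Hochberg adjustment over all tested genes. The prior degrees of freedom were infinite, so each gene's spread came from the trend over level. With a single sample per stage and no stage term, p-values of the type contrasts measure the spread between the stages of a type. Those of the slopes measure the spread around the line. Stage differences, differences between cells and technical ones cannot be told apart in it. No pair of arrays was a copy: the highest correlation among 231 pairs was 0.70. The fits were also run on simulated data, made by permuting each gene's values over the cells and adding known shifts. Those shifts were larger than any type contrast or slope fitted for a member here. That run therefore does not show what is found at the sizes seen here. Figures were drawn with matplotlib 3.10.9.

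The members, gene lists and tests were chosen with earlier results of these data known. The text names members that passed, the 5 largest differences per limma contrast and direction, up to 8 past 4-fold per comparison and direction, those detected in at least 11 cells, the most widely detected of each family, and a list of members known from the retina. Lists of markers of ganglion, amacrine, photoreceptor, progenitor, glial, lens, blood and vessel and pigment epithelium cells were checked. Alternatives changed the floor, the detection threshold and filter, the probe set, the normalization, the summary over cells, the unit and spread of the fit and the cells included. No column was unmapped. Promoter sequence came from RefSeq (GRCm38.p6).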

Additional observations from a re-analysis of the deposited data

Results flagged for a closer look

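The values of 22 groups of 4 to 10 cells were examined for a single outlying cell by Dixon's criterion, and 2 were found. Chance flags about 1 group in 20. Dcc in P0 ganglion cells was at 7.64 in cell A6, while the other 3 cells were at 12.14 to 12.33. Sema4g in P0 amacrine cells was at 8.89 in cell D1, while the other 4 were at 13.73 to 15.17.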

How the results depend on the processing

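No paired analysis was possible because cell names do not mark a shared animal. In ganglion minus amacrine samples 0 members were called under every alternative run, with a lowest limma adjusted p of 0.0996. A member was called in 2 settings: Plxna2 when P0 was set against the mean of the 4 embryonic stages (1 member), and Epha8 in the photoreceptor contrast with a detection threshold of 500 (1 member). Neither call is support for a difference: Plxna2 was below the detection threshold in every ganglion cell and at the floor in all embryonic ones, and Epha8 entered the test only through the 3 photoreceptors in which it was high. Averaging the probe sets of a gene left 15 members detected in at least 3 cells, against 30. By any probe set, an alternative chosen after seeing the data, the number was also 30.

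The median over members in the photoreceptor contrast, -0.26, was -0.38 with averaged probe sets, 0.03 with medians over cells, -0.00 with no filter on dim genes, and -0.77 to -0.03 when each cell was left out, with the adult rod and amacrine cell F6 giving the ends. The 2 members 4-fold higher in P0 ganglion than P0 amacrine cells were 4 with a floor of 100, 0 with a floor of 500, 0 with averaged probe sets and 1 (without ganglion cell F1) to 4 (without A6) when a cell was left out. The 4 lower members were 2 with a floor of 500 and 0 with averaged probe sets.

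In P0 minus E12.5 ganglion cells, the 1 higher member was 0 with averaged probe sets, and the 3 lower were 1 with a floor of 500, 5 with medians over cells and 2 to 5 when a cell was left out (5 without F3 or F6 of E12.5). In P0 photoreceptors minus the other P0 cells, the 1 higher member was 2 with a detection threshold of 500, 0 with averaged probe sets, 4 with medians, 3 with no filter, and 1 to 5 when a cell was left out (5 without either photoreceptor, 2 without ganglion cell A3), and the 5 lower were 3 with averaged probe sets. The photoreceptor contrast of Efna2, 0.51, was -0.17 with cells as units and a random block, and -1.07 to 0.63 when a cell was left out, and that of Sema6b, 0.60, was -0.63 to 0.98, both lowest without the adult rod. Plxnb1 in P0 ganglion minus P0 amacrine cells was -0.38 (without A6) to 3.94. Slit1 in ganglion minus amacrine samples, 1.48, was -0.07 with quantile normalization. Except for Plxnb1, the cause was not tested. Each value at the floor sets only a bound, so differences against cells at the floor are limited by it.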
